A study of Drosophila melanogaster with 13 samples.

Results

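The fly testis is kept going by a small cluster of somatic cells at its tip, the hub, and by somatic cyst cells that enclose the germ cells as they divide and differentiate. A set of 9 genes used to mark these cells or to signal between them is described here across 13 arrays of whole testes from 5 genotypes: esg, tj, zfh1, eya, Fas3, upd1, hh, ptc and Stat92E. They were chosen by name, and each is read from the probe set of its platform symbol that has the highest mean over the arrays. Of the 9 genes, 8 had a probe set, 1 for each, among 11981 genes with a probe set of their own; Fas3, which encodes an adhesion protein of hub cell membranes, is not analysed here. Only 4 of the 9, esg, Stat92E, hh and eya, passed the filter on low values and were tested among 8719 genes.

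All flies were 0 to 1 day past eclosion and raised at 25 °C, and their testes were taken without the seminal vesicles and accessory glands. The mutants were aly[2]/aly[5p] (3 arrays, called aly below), sa[1]/sa[2] (3 arrays, called sa), magn[12c]/magn[23b] (2 arrays, called magn 23b) and magn[12c]/magn[12c];pSC2 (2 arrays, called magn pSC2). The testes they are set against came from flies carrying red[1] and e[1], which the labels call WT (3 arrays). As background, aly encodes a subunit of a testis form of a conserved chromatin complex, sa encodes a testis form of a TFIID subunit, and both mutants arrest germ cells as mature primary spermatocytes; magn alleles lie in a polyubiquitin gene. The labels do not say what pSC2 is. They call the arrays biological replicates without saying whether these came from separate crosses, and give no other marker of the mutant stocks, so a mutation and its genetic background cannot be told apart. All 4 comparisons with WT use the same 3 WT arrays. Whole organs were measured, so fewer cells of a type and less RNA per cell cannot be told apart.

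In the textbook picture of the stem cell niche, hub cells secrete the cytokine Upd1, which activates the JAK-STAT pathway and its transcription factor Stat92E in the neighbouring germline and cyst stem cells. The hub also secretes Hedgehog, which acts on cyst stem cells through its receptor Patched, and ptc is itself a target of the pathway. Zfh1 and Traffic jam (tj) are nuclear factors of cyst stem cells and early cyst cells, Eyes absent (eya) marks cyst cells that have left the stem cell pool, and Escargot (esg) is a zinc finger factor needed to keep hub cells and cyst stem cells.

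Values are log2 probe set summaries. A value at or under 4 is treated as not above background, since between 29.1% and 34.8% of the probe sets of an array lay within 0.01 of the floor of 2.10. Between 8822 and 9759 of 18952 probe sets were above 4 per array, and arrays of 1 genotype correlated at 0.9834 or higher. A difference is called when its adjusted p in limma (Benjamini-Hochberg over all tested genes) is under 0.05 and it is at least 2-fold, and rose, fell and the like are kept for called genes. Much of the transcriptome moved: 70.4% of tested genes were called in aly, 62.5% in sa, 37.9% in magn 23b and 49.0% in magn pSC2, each against WT. Called higher were 45.6%, 40.9%, 25.5% and 32.2% in the same order, and called lower 24.8%, 21.6%, 12.4% and 16.8%. The median change of all tested genes was 0.77 in aly, 0.66 in sa, 0.33 in magn 23b and 0.46 in magn pSC2. Cytosolic ribosomal protein genes lay higher still, with array medians of 14.51 to 14.70 in aly, 14.61 to 14.66 in sa, 13.90 to 14.30 in magn 23b and 14.32 to 14.37 in magn pSC2, against 12.94 to 13.36 in WT. When the arrays are centred on these 26 genes, the median change of all tested genes turns to -0.62 in aly, -0.77 in sa, -0.57 in magn 23b and -0.69 in magn pSC2, so calls below are those of the deposited scale, and values on the scale of the ribosomal protein genes are set beside the main ones.

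Markers of other testis cells moved as well. All 12 spermatid genes fell in aly and in sa, while 2 fell and 1 rose in magn 23b and 4 fell in magn pSC2. Centred on ribosomal protein genes, 7 fell in magn 23b and 11 in magn pSC2. The log2 of their summed level was 10.98 to 11.21 in aly, 14.02 to 14.77 in sa, 16.86 to 16.93 in magn 23b and 16.43 to 16.51 in magn pSC2, against 17.04 to 17.12 in WT. Genes of the early germline had sums of 13.09 to 13.24 in aly, 12.35 to 12.67 in sa, 12.27 to 12.58 in magn 23b and 12.32 to 12.51 in magn pSC2, against 11.71 to 11.86 in WT, with vas as the 1 gene of 12 at or under 4 in every array. Of 11 of these early germline genes tested, 7 rose and 2 fell in aly, 6 rose in sa, and 6 rose and 1 fell in each of magn 23b and magn pSC2. With ribosomal centring these counts become 4 and 3, 3 and 3, 2 and 2, and 2 and 2.

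Tissue outside the germline was present too. Accessory gland genes, products of an organ that was to be removed, had log2 sums of 13.71 to 14.29 in aly, 14.60 to 16.00 in sa, 14.14 to 14.24 in magn 23b and 17.06 to 17.08 in magn pSC2, against 14.72 to 17.70 in WT. Of 14, 13 fell in aly, 1 in sa and 8 in magn 23b, while limma called 0 in magn pSC2, with 1 higher at an unadjusted p under 0.05. Centred on ribosomal protein genes, all 14 fell in aly, sa and magn 23b and 1 fell in magn pSC2. WT replicate 2 had the highest sum, 17.70. Sheath muscle genes had sums of 11.38 to 12.23 in aly, 12.19 to 12.96 in sa, 13.27 to 13.76 in magn 23b and 13.21 to 13.47 in magn pSC2, against 13.97 to 14.43 in WT. Of 11 tested, 4 fell in aly, 4 in sa, 1 in magn 23b with 2 higher, and 2 in magn pSC2 with 3 higher. With ribosomal centring, 11 fell in aly, 9 in sa, 2 in magn 23b and 4 in magn pSC2, and the rises were no longer called. Of 3 fat body genes tested, 3 fell in aly, 3 in sa, 2 in magn 23b and 2 in magn pSC2 (3 in each mutant on the ribosomal scale), with Yp1, Yp2 and Yp3 at or under 4 throughout. Of 8 hemocyte genes tested, 5 rose and 1 fell in aly and in magn pSC2, and 4 rose and 1 fell in sa and in magn 23b, with He, eater and Sr-CI at or under 4 throughout. On the ribosomal scale 1 rose and 1 fell in aly, 1 rose and 2 fell in sa, 3 rose and 1 fell in magn 23b, and 3 rose and 2 fell in magn pSC2. The part of these tissues in the results below was not tested.

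The esg transcript separated the 5 genotypes into those in which it was detected and those in which it was not. Its values were 6.76, 6.40 and 7.06 in aly, 2.45, 3.06 and 2.57 in sa, 2.42 and 2.42 in magn 23b and 2.41 and 2.41 in magn pSC2, against 7.07, 7.14 and 7.80 in WT. Every aly and WT array was above background by more than 2 log2 units, and every sa and magn array was below it.

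Against WT, esg was at least 10.1-fold lower in sa (fitted log2 change -4.64, SE 0.28, limma adjusted p = 6.28e-09), where the bound sets the WT mean of 7.34 ± 0.40 (SD, n = 3) against the background level of 4. In magn 23b the fitted change was -4.92 (SE 0.31, limma adjusted p = 8.08e-08) and in magn pSC2 it was -4.93 (SE 0.31, limma adjusted p = 3.19e-08), again at least 10.1-fold lower in each. These falls stood among 21.6% of tested genes called lower in sa, 12.4% in magn 23b and 16.8% in magn pSC2. Since esg passed the low-value filter only through its aly and WT arrays, the sizes carry more than the calls. The same holds for aly over sa and both magn genotypes below, and the p-values of all these contrasts add no support. Their SEs rest on a spread shared by the 5 genotypes, in which the magn 23b and magn pSC2 arrays, at background, had SDs of 0.0001 and 0.0.

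The aly testes differed from the other mutants in esg. The mean in aly was 6.74 ± 0.33 (SD, n = 3), which was at least 6.67-fold above sa (fitted log2 difference 4.04, SE 0.28, limma adjusted p = 2.4e-08), where 40.0% of tested genes were called and 18.8% were called higher in aly. The same bound of 6.67-fold held for aly over magn 23b (4.32, limma adjusted p = 2.73e-08) and over magn pSC2 (4.33, limma adjusted p = 3.34e-08), with 35.7% and 30.7% of tested genes called higher. Between aly and WT the difference was -0.60 (SE 0.28, 95% interval -1.20 to -0.0015, limma adjusted p = 0.0598) and was not called. The highest aly array, at 7.06, lay only just under the lowest WT array, at 7.07. For no comparison here was the share of all tested genes without overlap counted, so a lack of overlap is description only. In aly against WT 24.8% of tested genes were called lower, and the esg difference reached -1.99 and was called on the scale of the ribosomal protein genes.

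**Figure D1:**
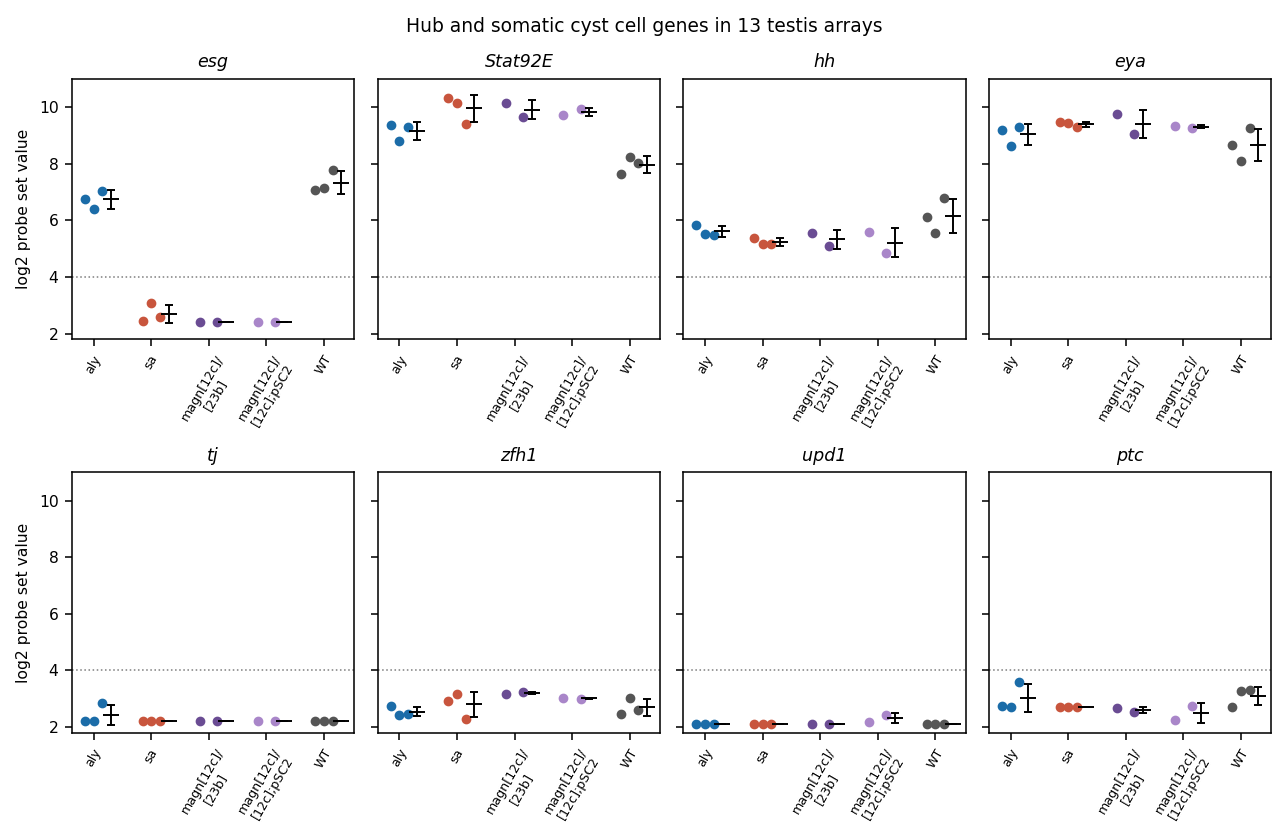
Log2 probe set values (vertical axis) of the 8 measured genes in the 13 arrays, by genotype (horizontal axis); points are arrays, bars the mean and SD, and the dotted line the background level of 4. The esg points of sa and both magn genotypes lie between 2.41 and 3.06 and those of aly and WT between 6.40 and 7.80, while tj, zfh1, upd1 and ptc stay under 4 everywhere.

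Beside these esg values, the spermatid sum was 16.43 or higher in both magn genotypes, 14.02 to 14.77 in sa and at most 11.21 in aly. The accessory gland sum was highest in magn pSC2 and in WT replicate 2, where esg was at 2.41 and at 7.14. The part of spermatids or of carried-over tissue in the esg pattern was not tested. Each of the 4 changes of esg kept its direction under every alternative run, and leaving out 1 array at a time kept the sa change between -4.83 and -4.41, the magn 23b change between -5.06 and -4.69 and the magn pSC2 change between -5.06 and -4.70. With the sa and magn arrays at background, little else could have come of these runs for them.

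The genes beside esg on chromosome arm 2L were looked up after its values had been seen. The 5 measured genes on each side, in the order of the current gene table, did not repeat its pattern in any case. On one side, nht, a testis TAF gene, rose by 2.89 in aly, 2.15 in sa, 1.48 in magn 23b and 1.81 in magn pSC2, and CG15262 next to it rose by 3.35, 2.34, 1.81 and 1.73 (limma adjusted p of 1.91e-06 or lower in each). On the ribosomal scale both were called in aly alone, with nht at 1.50, 0.72, 0.58 and 0.66 and CG15262 at 1.96, 0.91, 0.90 and 0.58. On the other side, CG15258 fell in aly, sa and magn pSC2 (on the ribosomal scale in magn 23b too), with means of 2.72 in aly, 8.85 in sa, 11.32 in magn 23b and 10.64 in magn pSC2, against 11.89 in WT. The other snail-family genes of the region, wor and sna, were at background in all 13 arrays, at no more than 2.59 and 2.18.

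**Figure D2:**
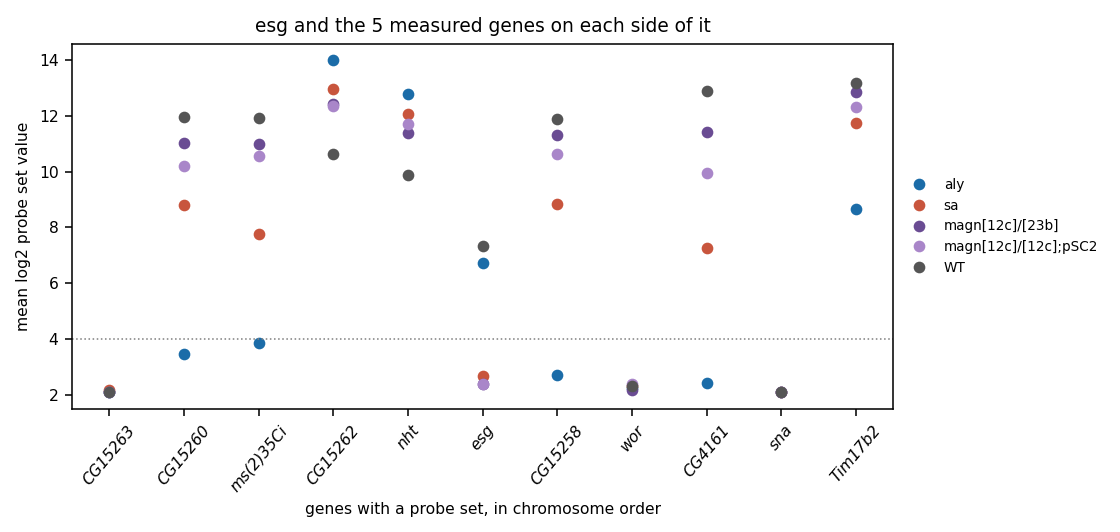
Mean log2 probe set value (vertical axis) of esg and of the 5 measured genes on each side of it, in chromosome order (horizontal axis); colours are genotypes and the dotted line is the background level of 4. Where esg is at 6.74 in aly and 7.34 in WT, CG15258 is at 2.72 in aly and 11.89 in WT, and no flanking gene has the split of esg.

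Over the 13 arrays, the named genes whose values moved most like esg were hiw (Pearson r = 0.97), hoe2 (r = 0.97) and SkpF (r = 0.95). The arrays share genotypes, so these r describe group differences. Their means in sa, both magn genotypes and WT show smaller steps than those of esg: hiw averaged 8.25 in aly, 5.03 in sa, 5.65 in magn 23b and 5.30 in magn pSC2, against 9.27 in WT.

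Stat92E, the transcription factor of the JAK-STAT pathway, was higher in all 4 mutants on the deposited scale. It had 9.38, 8.81 and 9.29 in aly, 10.32, 10.16 and 9.41 in sa, 10.15 and 9.67 in magn 23b and 9.73 and 9.94 in magn pSC2, against 7.64, 8.24 and 8.03 in WT. No mutant array overlapped with WT, and the share of all tested genes for which this holds was not counted.

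The change against WT was 1.19 in aly (SE 0.26, limma adjusted p = 0.0008), where 45.6% of tested genes were called higher. It was 1.99 in sa (SE 0.26, limma adjusted p = 1.01e-05), where 40.9% were. In magn 23b it was 1.94 (SE 0.29, limma adjusted p = 0.000106; 25.5% of genes called higher) and in magn pSC2 1.87 (SE 0.29, limma adjusted p = 8.94e-05; 32.2%). On the scale of the ribosomal protein genes only the change of magn 23b, 1.03, was still called. There sa gave 0.56, magn pSC2 0.72 and aly -0.20, so the direction in aly turns with the scaling. Centred on all tested genes, the changes were 0.93 in aly, no longer called, and 1.57 in sa, 1.58 in magn 23b and 1.51 in magn pSC2, all called.

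Among the mutants the aly level was the lowest. The mean was 9.16 ± 0.31 in aly, against 9.96 ± 0.48 in sa (SD, n = 3 each), a difference of -0.80 (SE 0.26) with a limma adjusted p of 0.0176 that is under 2-fold and so not called. Leaving out sa replicate 3, the lowest of its group, gave -1.08 (limma adjusted p = 0.00176), which was called. Against magn 23b aly differed by -0.74 (limma adjusted p = 0.0332) and against magn pSC2 by -0.68 (limma adjusted p = 0.052), both under 2-fold. On the ribosomal scale the difference from magn 23b was -1.23 and called, while those from magn pSC2, -0.92, and from sa, -0.76, were not called. The order of means was sa 9.96, magn 23b 9.91, magn pSC2 9.84, aly 9.16 and WT 7.97, in which the first 3 have overlapping arrays. The named genes closest to Stat92E in pattern over the 13 arrays were Csp (r = 0.99), Tsp42Ee (r = 0.98) and moody (r = 0.97).

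The ligand gene hh was low but above background in all 13 arrays and lay highest in WT. Its values were 5.83, 5.53 and 5.49 in aly, 5.39, 5.16 and 5.15 in sa, 5.56 and 5.10 in magn 23b and 5.58 and 4.85 in magn pSC2, against 6.13, 5.56 and 6.79 in WT. The sa arrays were all below WT, and those of aly and of both magn genotypes overlapped with WT replicate 2.

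No change of hh was called on the deposited scale. The difference from WT was -0.54 in aly (95% interval -1.23 to 0.15, limma adjusted p = 0.135), -0.92 in sa (limma adjusted p = 0.0179, under 2-fold), -0.83 in magn 23b (limma adjusted p = 0.0647) and -0.95 in magn pSC2 (limma adjusted p = 0.0328, under 2-fold). Centred on ribosomal protein genes it was -1.93 in aly, -2.36 in sa, -1.73 in magn 23b and -2.10 in magn pSC2, all called. Centred on all tested genes it was -0.81, -1.35, -1.19 and -1.31 in the same order and called in all but aly. Without WT replicate 2 the calls in sa (-1.22), magn 23b (-1.13) and magn pSC2 (-1.25) were reached on the deposited scale too. The order of hh means was WT 6.16, aly 5.62, magn 23b 5.33, sa 5.23 and magn pSC2 5.21, and no neighbours in it differed beyond their spread on the deposited scale. With quantile normalization hh in aly was above magn 23b by 1.55, above magn pSC2 by 1.67 and above sa by 1.49, all called. Nearest in pattern were Ns2 (r = 0.88), rtp (r = 0.88) and Vajk4 (r = 0.86).

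The cyst cell gene eya was above background in every array, between 8.10 and 9.74. It had 9.21, 8.62 and 9.31 in aly, 9.47, 9.43 and 9.29 in sa, 9.74 and 9.04 in magn 23b and 9.35 and 9.27 in magn pSC2, against 8.65, 8.10 and 9.25 in WT. Arrays of aly and magn 23b overlapped with WT, and those of sa and magn pSC2 lay just above its highest array.

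The difference of eya from WT was 0.38 in aly (95% interval -0.24 to 0.99, limma adjusted p = 0.236), 0.73 in sa (0.11 to 1.34, limma adjusted p = 0.0327, under 2-fold), 0.72 in magn 23b (0.03 to 1.41, limma adjusted p = 0.0688) and 0.64 in magn pSC2 (-0.05 to 1.33, limma adjusted p = 0.0941). None was called, and the direction turns with the scaling. Centred on ribosomal protein genes the differences were -1.01 in aly, called, and -0.71 in sa, -0.18 in magn 23b and -0.51 in magn pSC2, not called. Leaving out WT replicate 3 gave called differences of 1.02 in sa and 1.02 in magn 23b. From the top the order was sa 9.39, magn 23b 9.39, magn pSC2 9.31, aly 9.05 and WT 8.67, in which every neighbouring pair overlapped. The genes nearest in pattern were rost (r = 0.90), egl (r = 0.88) and Galphai (r = 0.87).

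**Figure D3:**
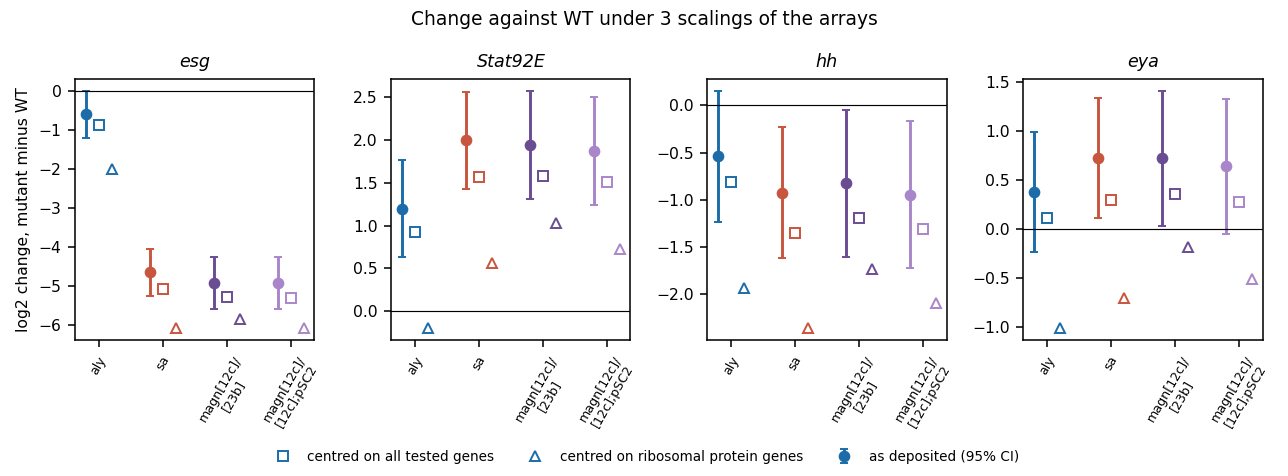
Log2 change against WT (vertical axis, a separate range for each gene) in the 4 mutants (horizontal axis) for the 4 tested genes; filled circles are deposited values with 95% intervals, squares are arrays centred on all tested genes and triangles arrays centred on ribosomal protein genes. The esg changes of sa and both magn genotypes lie at -4.64 or below on each scale, whereas Stat92E in aly moves between 1.19 and -0.20.

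The other 4 measured genes were not above background in any array, so their levels cannot be compared between genotypes. The factor gene tj ranged over 2.22 to 2.84 with a median of 2.22, and its only array off the lowest value was aly replicate 3. The gene zfh1 ranged over 2.29 to 3.23 with a median of 2.93. The cytokine gene upd1 ranged over 2.11 to 2.44 with a median of 2.11, and the 2 arrays above the rest were those of magn pSC2. The receptor gene ptc ranged over 2.24 to 3.60 with a median of 2.71, its highest value being that of aly replicate 3. Of the markers of hub and cyst stem cells, tj, zfh1 and upd1 were thus not detected in any genotype, whereas hh was above background in all 13 arrays. Each gene rests on 1 probe set, and the early germline gene vas was at or under 4 in every array too. A value at background therefore does not show that a transcript is absent. The gene esg, which is listed here for germline stem cells as well as for somatic stem cells or the hub, was detected only in the aly and WT arrays.

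Counted over the 4 tested genes, 1 rose in aly (45.6% of all tested genes were called higher), and 1 rose and 1 fell in each of sa, magn 23b and magn pSC2, where 62.5%, 37.9% and 49.0% of all tested genes were called, against WT. Between aly and sa 1 was called, beside 40.0% of all genes, and between magn 23b and magn pSC2 limma called 0, also 0 at an unadjusted p under 0.05, where 10.1% of all genes were called. The differences between the 2 magn genotypes were 0.00 for esg, both being at background, 0.07 for Stat92E (limma adjusted p = 0.922), 0.12 for hh (limma adjusted p = 0.881) and 0.08 for eya (limma adjusted p = 0.914). With 2 arrays a genotype the intervals stay wide: the one of eya ran from -0.67 to 0.84.

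Genes that act with these 9 were followed in lists chosen with earlier results of the data known. Of all tested genes, 45.6% were called higher in aly, 40.9% in sa, 25.5% in magn 23b and 32.2% in magn pSC2. A list count near these shares is no result about its list. On the ribosomal scale 1776 of 8719 genes were called higher and 3739 lower in aly, and 879 and 3867 in sa. In magn 23b they were 660 and 2898, and in magn pSC2 680 and 3442. Of 15 other Hedgehog pathway genes, 12 had a probe set and were tested. In aly 7 rose and 1 fell, in sa 10 rose, in magn 23b 4 rose and in magn pSC2 6 rose. They had median changes of 1.35, 1.71, 0.94 and 1.23 beside 0.77, 0.66, 0.33 and 0.46 for all tested genes. Centred on ribosomal protein genes, 5 rose and 4 fell in aly, 2 rose and 2 fell in sa, and 2 rose in each magn genotype, so most of these directions rest on the scaling.

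Both inhibitors that hold the pathway's transcription factor in the cytoplasm rose in every mutant on the deposited scale. The kinesin-like protein gene cos averaged 8.16 ± 0.26 in aly, 7.30 ± 0.23 in sa (SD, n = 3 each), 5.93 in magn 23b and 6.24 in magn pSC2, against 4.06 ± 0.75 in WT (SD, n = 3). That amounts to changes of 4.10, 3.24, 1.87 and 2.19, and of 2.71, 1.81, 0.97 (not called) and 1.04 when centred on ribosomal protein genes. Su(fu) changed by 3.18 in aly, 2.18 in sa, 1.96 in magn 23b and 2.44 in magn pSC2, and by 1.79, 0.75 (not called), 1.06 and 1.29 on the ribosomal scale.

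Genes for release and reception of the ligand rose in aly and sa on the deposited scale. The ligand release gene disp rose by 2.91 in aly, 2.02 in sa, 1.24 in magn 23b and 1.50 in magn pSC2, and on the ribosomal scale the values 1.52, 0.59, 0.33 and 0.35 were called in aly alone. The co-receptor gene boi rose by 3.04 in aly and 3.57 in sa, or by 1.65 and 2.14 on the ribosomal scale, while its differences of 0.93 in magn 23b and 0.37 in magn pSC2 were not called and the second was -0.78 on the ribosomal scale. The transducer gene smo rose by 1.64 in aly and 1.47 in sa, which became 0.25 and 0.04 when centred on ribosomal protein genes. The pathway's transcription factor gene ci had 3.66 to 4.11 in aly, 5.74 to 8.07 in sa, 5.50 to 6.70 in magn 23b and 5.75 to 5.78 in magn pSC2, against 4.23 to 5.12 in WT, and its rise of 2.59 was called in sa alone (limma adjusted p = 0.000526) and was 1.15, not called, on the ribosomal scale. In aly, ci differed by -0.76 from WT and was not called, but was -2.15 and called on the ribosomal scale.

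**Figure D4:**
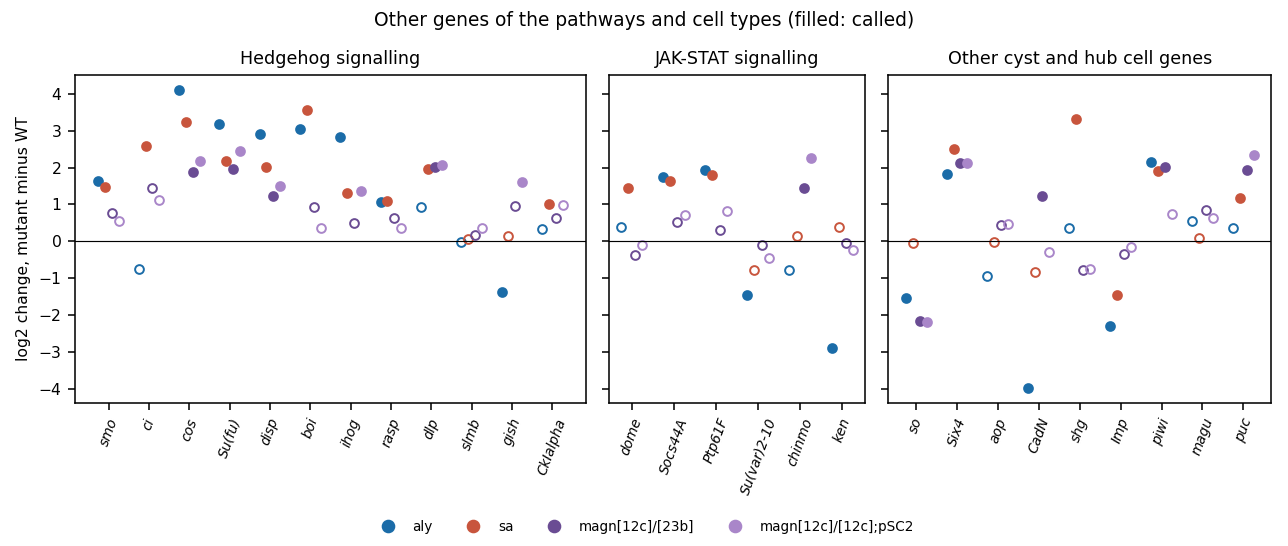
Log2 change against WT (vertical axis) on the deposited scale for every tested gene of 3 lists that surround the 9 genes (horizontal axis); colours are mutants and filled points are called. The Hedgehog panel holds mostly positive points, up to 4.10 for cos in aly, whereas the third panel holds points on both sides of 0; CadN in aly, where its arrays are under 4, is drawn at its fitted value, and its bound is 7.42-fold.

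Of 11 other JAK-STAT genes, 8 had a probe set and 6 were tested. In aly 2 rose and 2 fell, in sa 3 rose, and in each magn genotype 1 rose, with median changes of -0.19, 0.92, 0.12 and 0.30. Beside these counts, 45.6%, 40.9%, 25.5% and 32.2% of all tested genes were called higher. Centred on ribosomal protein genes, 3 fell in aly and in sa, 2 fell in magn 23b, and 1 rose and 3 fell in magn pSC2. The receptor gene dome averaged 8.99 in aly, 10.04 in sa, 8.22 in magn 23b and 8.49 in magn pSC2, against 8.59 in WT, and its rise of 1.45 was called in sa (0.02 on the ribosomal scale, where magn 23b and magn pSC2 fell by 1.28 and 1.25). The ligand gene upd2 was at the floor in all arrays, and et, which encodes a receptor antagonist, was at or under 4.

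Inhibitors of the pathway had called changes in aly and sa. Ptp61F, a phosphatase gene, rose by 1.93 in aly and 1.79 in sa, and Socs44A by 1.76 and 1.63, but on the ribosomal scale these became 0.53 and 0.36 for Ptp61F and 0.37 and 0.20 for Socs44A and were not called. The repressor gene ken fell by 2.89 in aly, where it averaged 5.17 ± 0.35 against 8.06 ± 0.34 in WT (SD, n = 3 each), and was called in no other mutant on the deposited scale (sa, at -1.05, and magn pSC2, at -1.38, were called on the ribosomal one). Su(var)2-10, which encodes the PIAS inhibitor and is named after its value was seen, fell by 1.45 in aly. The target gene chinmo, which keeps cyst stem cells in a male state, rose by 1.44 in magn 23b and 2.25 in magn pSC2, while it differed by -0.78 in aly and 0.15 in sa, not called. It fell on the ribosomal scale in aly (-2.17) and sa (-1.28) and rose in magn pSC2 (1.10).

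Other genes of cyst and hub cells did not move as a block. Of 14, 12 had a probe set and 9 were tested, and 2 rose and 3 fell in aly, 4 rose and 1 fell in sa, 4 rose and 1 fell in magn 23b, and 2 rose and 1 fell in magn pSC2. Their median changes were 0.35, 0.09, 0.84 and 0.46, and on the ribosomal scale -1.04, -1.34, -0.07 and -0.69. The shares of all tested genes called higher were 45.6%, 40.9%, 25.5% and 32.2%, and called lower 24.8%, 21.6%, 12.4% and 16.8%. The list's tup and ct, further nuclear factors, and Lar, a receptor phosphatase, were at or under 4 in all arrays.

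The partners of Eya went different ways. The Six-family gene so had 6.98 to 7.27 in aly, 8.30 to 8.73 in sa, 6.25 to 6.69 in magn 23b and 6.01 to 6.86 in magn pSC2, against 8.58 to 8.71 in WT. It thus fell in aly (-1.55, limma adjusted p = 6.17e-05), in magn 23b (-2.17, limma adjusted p = 3.25e-05) and in magn pSC2 (-2.20, limma adjusted p = 1.58e-05), on the ribosomal scale as well, while the sa arrays overlapped with WT (-0.06, or -1.49 and called on the ribosomal scale). Its relative Six4 rose by 1.84 in aly, 2.50 in sa, 2.12 in magn 23b and 2.13 in magn pSC2, with 0.45, 1.06, 1.21 and 0.98 on the ribosomal scale, where the second and the third were called.

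Among the cadherin genes of the niche, CadN fell in aly and shg rose in sa. On the deposited scale CadN also rose in magn 23b, with a mean of 8.12 against 6.89 in WT, but this was under 2-fold on the ribosomal scale. CadN was at 2.83 to 3.01 in aly, 5.63 to 6.40 in sa, 8.08 to 8.16 in magn 23b and 6.33 to 6.86 in magn pSC2, against 6.37 to 7.52 in WT. It was thus not above background in aly and at least 7.42-fold lower there (limma adjusted p = 4.05e-08). The gene of DE-cadherin, shg, had 5.23 to 6.21 in aly, 8.59 to 8.70 in sa, 4.52 to 4.59 in magn 23b and 4.37 to 4.80 in magn pSC2, against 5.28 to 5.36 in WT. Its rise of 3.31 in sa (limma adjusted p = 8.38e-08) was still 1.88 on the ribosomal scale and called, where aly fell by 1.04. In magn 23b and magn pSC2, shg differed by -0.77 and -0.74, under 2-fold, and by -1.67 and -1.89, called, on the ribosomal scale. The gene of a JNK phosphatase, puc, rose by 1.16 in sa, 1.94 in magn 23b and 2.35 in magn pSC2, and differed by 0.35 in aly, not called. The ribosomal scale put sa at -0.27, aly at -1.04, called, and magn 23b at 1.04, not called.

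Junction genes through which cyst cells meet the germline and each other were followed in the same way. Of 17, 16 had a probe set and were tested, and 2 rose and 1 fell in aly, 5 rose and 1 fell in sa, 4 rose in magn 23b, and 6 rose and 1 fell in magn pSC2, with medians of 0.41, 0.65, 0.48 and 0.83. Among all tested genes 45.6%, 40.9%, 25.5% and 32.2% were called higher. On the ribosomal scale 8 fell in aly, 5 in sa, 4 in magn 23b and 3 in magn pSC2. The gap junction gene ogre fell by 3.57 in aly, 2.53 in sa and 2.24 in magn pSC2 and differed by -0.83, not called, in magn 23b (-1.73 and called on the ribosomal scale). The claudin gene pck rose by 1.61 in aly, 2.16 in sa and 1.13 in magn pSC2, which became 0.22, 0.73 and -0.02 on the ribosomal scale. The polarity gene dlg1 rose by 1.68 in magn 23b and 2.19 in magn pSC2, which became 0.77 and 1.04, not called.

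Signals between germline and cyst cells were followed through the EGF and BMP pathways. Of 18 EGF pathway genes 9 were tested, and 4 rose and 1 fell in aly, 4 rose in sa, limma called 0 in magn 23b, with 4 higher at an unadjusted p under 0.05, and 2 rose in magn pSC2, with medians of 0.67, 0.87, 0.75 and 0.89. These counts stood beside 45.6%, 40.9%, 25.5% and 32.2% of all tested genes called higher, and those of aly and sa were near these shares. On the ribosomal scale 2 rose and 3 fell in aly, 3 fell in sa and 1 fell in each magn genotype. The receptor gene Egfr, which acts in cyst cells, had no called change, with differences of 0.58 in aly, 0.22 in sa, -0.02 in magn 23b and 0.18 in magn pSC2 (limma adjusted p of 0.0513 or higher), although on the ribosomal scale it fell in sa (-1.22). The exchange factor gene Sos rose by 2.66 in aly, 2.35 in sa and 2.10 in magn pSC2, which on the ribosomal scale was called in aly alone (1.27), and the antagonist gene sty fell by 1.59 in aly.

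Of 9 BMP pathway genes 8 were tested, and 5 rose and 1 fell in aly, 4 rose and 1 fell in sa, and 4 rose in each magn genotype, with medians of 1.58, 1.40, 1.13 and 1.29. For all tested genes the shares called higher were 45.6%, 40.9%, 25.5% and 32.2%. On the ribosomal scale 3 fell in aly, 3 rose and 3 fell in sa, 1 rose and 1 fell in magn 23b, and 1 fell in magn pSC2. The ligand genes of the niche, dpp and gbb, had no called change, with dpp at -0.62 in aly, -0.20 in sa, 1.11 in magn 23b and 1.00 in magn pSC2, but on the ribosomal scale dpp fell in aly (-2.01) and sa (-1.63) and gbb fell in all 4 mutants (-1.66 to -1.25). The receptor genes put and sax rose in every mutant, put by 1.89 in aly, 2.81 in sa, 1.27 in magn 23b and 1.56 in magn pSC2, and on the ribosomal scale both were called in sa alone. The gene of the receptor-regulated Smad, Mad, rose by 2.02, 2.99, 2.11 and 1.36 in the same order, and was called in sa (1.56) and magn 23b (1.20) on the ribosomal scale. Sox100B, the 1 measured gene of the pigment cells that surround the testis, rose by 1.86 in aly, 1.90 in sa, 1.96 in magn 23b and 1.48 in magn pSC2, and was called in magn 23b alone (1.06) on the ribosomal scale.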

How the data were processed

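Total RNA of testes was hybridised to 13 Affymetrix Drosophila 2 arrays. The deposited log2 values were made by the authors with GCRMA, per the submitters' processing notes, which give no version; 13646 of 18952 probe sets pair with exactly 1 gene. The genome build is not given in the sources used here, so a gene table served only for names and gene order. Scan dates and slides were not used.

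The 9 genes and all lists (JAK-STAT, Hedgehog, EGF and BMP signalling, other cyst and hub cells, junctions, pigment cells, sheath muscle, accessory gland, fat body, hemocytes, early germline, spermatids) were chosen with earlier results of these data known. Genes above 4 in at least 3 of 13 arrays were tested (8719). A linear model with 5 genotype groups was fitted with limma 3.58.1 in R 4.3.3 (lmFit, eBayes with an intensity trend), with Benjamini-Hochberg adjustment over all tested genes of a contrast. Python 3.11.15 (pandas 2.3.3, numpy 2.4.6, matplotlib 3.10.9) made the rest. Where all arrays of a group were at or under 4, folds are bounds that set the mean of the other group, not its lowest array, against 4. From each list up to 4 called genes with the largest change and no overlap with WT were named, plus direct partners of the 9 genes.

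On simulated data for sa against WT over 8719 genes, 89% of genes changed by 1.5 on the log2 scale and 97% of those changed by 3 were recovered, with 5 false calls. Only 100 genes were changed at each size, all bright in WT, and no shift of all genes was added. The simulation therefore says nothing about dim genes or about the scaling of the arrays. The number of arrays limits the precision, and p-values measure only the spread between these arrays. Alternatives changed the filter, scaling, variance model, probe set summary, grouping and arrays included.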

Additional observations from a re-analysis of the deposited data

How the results depend on the processing

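The falls of esg in sa, magn 23b and magn pSC2 and its excess in aly over sa and both magn genotypes kept their direction and call under every alternative run. With esg at background in sa and magn and far above it in aly and WT, the alternatives could hardly have changed these calls. Its difference between aly and WT was called under 1 alternative, centring on ribosomal protein genes. For the other tested genes the scaling of the arrays mattered, and the cause was not tested. Of the 4 tested genes, the number called in aly against WT was 1, and became 0 with quantile normalization, 0 when centred on all tested genes and 3 when centred on ribosomal protein genes. In sa against WT it was 2 and became 4 with no minimum change. It became 3 there with quantile normalization, when centred on all tested genes and with array weights. In aly against sa it was 1 and became 2 with quantile normalization, where hh was added, and 2 with no minimum change. Leaving out 1 array at a time gave 1 to 2 in aly against sa, 1 in aly against WT, 2 to 3 in sa, magn 23b and magn pSC2 against WT, and 0 between the magn genotypes. Directions turned for hh in aly with quantile normalization (0.040), for Stat92E in aly (-0.20) and eya in aly (-1.01), sa (-0.71), magn 23b (-0.18) and magn pSC2 (-0.51) when centred on ribosomal protein genes, and for eya in aly with array weights (-0.014). Between the 2 magn genotypes, leaving out an array moved eya between -0.27 and 0.43, hh between -0.24 and 0.49 and Stat92E between -0.17 and 0.31. The call of hh also appeared in sa without sa replicate 1, in magn pSC2 without its replicate 1 (-1.31), with quantile normalization in sa (-1.45), magn 23b (-1.51) and magn pSC2 (-1.63), with array weights in the same 3 (-1.48, -1.32 and -1.44), and with no minimum change in sa and magn pSC2. In magn 23b, eya was called without magn 23b replicate 2 (1.07). All genes called between the magn genotypes numbered 879, against 476 without magn pSC2 replicate 2 and 1431 with no minimum change. Centring on ribosomal protein genes lowered the share of calls that were higher against WT to 32.2% in aly, 18.5% in sa, 18.5% in magn 23b and 16.5% in magn pSC2, where the deposited scale gave 64.7%, 65.4%, 67.2% and 65.8%. Replicate numbers gave no pairing that held across the genotypes: among 23 pairs of arrays with a shared number, r was over 0.1 in 7 and under 0 in 11 (-0.27 to 0.24). Pairs of a magn and a WT array were all positive (0.08 to 0.18), and whether these shared a batch was not tested. Between the magn genotypes r was 0.195 at both numbers, which is 1 value, since deviations in a group of 2 arrays mirror each other. With the replicate block the number of the 4 genes called was again 1 in aly and 2 in sa, magn 23b and magn pSC2 against WT, with 6146, 5456, 3305 and 4271 of all genes called. Values at background bound what could be seen of tj, zfh1, upd1 and ptc, and of esg in sa and both magn genotypes.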

Other observations

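The on and off pattern of esg was counted over all tested genes after it had been seen. Of 8719 tested genes, 9 were above 4 in every aly and WT array and at or under 4 in every sa and magn array, with no test attached to the count. Besides esg they were GstE2, a glutathione transferase gene, Sodq, a superoxide dismutase family gene, and CG11000, CG15022, CG17917, CG18180, CG3713 and CG6688. The gap of esg was the widest of these, with no sa or magn array above 3.06 and no aly or WT array below 6.40. CG11000 came next, with no sa or magn array above 2.36 and no aly or WT array below 5.17, and averaged 5.48 in aly, 2.33 in sa, 2.17 in magn 23b and 2.20 in magn pSC2, against 5.51 in WT. In CG15022 the gap was small, between 3.85 and 4.20. CG17917 averaged 5.70 in aly and 10.69 in WT, and Sodq 8.88 in aly and 5.11 in WT, so the genes that share the split differ in their levels where they are detected. None of the other 8 lies on chromosome arm 2L, which holds 1691 of the 8719 tested genes, esg among them. The place of so few genes on the chromosomes was not tested.

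The 2 magn genotypes, at background alike for esg, differed in the log2 sum of the accessory gland genes, 14.14 to 14.24 in magn 23b and 17.06 to 17.08 in magn pSC2, and in CadN, with 8.08 to 8.16 in magn 23b and 6.33 to 6.86 in magn pSC2.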
